A study of Homo sapiens with 4 samples.

Results

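Circular RNAs of the DIS3 nuclease family and of exosome cofactors were followed in human cells depleted of DIS3. The set holds every circle whose host gene is DIS3, DIS3L, DIS3L2, MTREX, ZFC3H1, HBS1L or TENT4A, taken up by host symbol; the list of hosts itself was drawn up with earlier results of these data known. That gave 83 of the 45182 circles listed, from 7 of 8230 host symbols. MTREX hosted 29 of them, DIS3L2 15, ZFC3H1 10, HBS1L 10, TENT4A 9, DIS3L 8 and DIS3 2. The study asked which circles depend on DIS3. All cells were Flp-In T-REx 293, a human embryonic kidney line that accepts a transgene at a fixed site, and all carried an integrated inducible Flag-HA DIS3 copy. In the DIS3 KD cells, clone 8, the endogenous gene had also been disrupted with CRISPR/Cas9, and the labels call this a knock down because some DIS3 was still made uninduced. Column names mark all 4 libraries (2 control, 2 KD, called biological replicates) as made without doxycycline, the inducer. A single KD clone was profiled, so the clone and the depletion cannot be told apart.

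The RNA exosome is a ring-shaped complex that degrades RNA from the 3' end, and DIS3 is its processive nuclease in the nucleus. DIS3L takes this place in the cytoplasm, while DIS3L2 works without the ring on RNA carrying 3' uridine tails. MTREX, known as MTR4, is the helicase that feeds nuclear RNA into the exosome, and ZFC3H1 links it to polyadenylated targets. HBS1L rescues stalled ribosomes, and a short isoform of it ties the exosome to the cytoplasmic SKI complex. TENT4A is a noncanonical poly(A) polymerase whose yeast relative, Trf4, tags RNA for the exosome. A circular RNA forms when a downstream exon end is spliced back onto an upstream exon start. It has no free end for an exonuclease, so its level and that of the linear RNA of the same gene can move apart.

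Circle levels are FPBcirc, backsplice reads per mapped gigabase, and linear host levels are on the same FPB scale. CIRCscore is the ratio of circle to linear signal. Controls 1 and 2 were sequenced to 19.6 and 20.4 mapped gigabases and KD 1 and 2 to 165 and 47.9, so 1 read was worth 0.0511, 0.0489, 0.00604 and 0.0209 FPB. Over both controls together, 3 reads, the limit that a count of 0 allows, equal 0.0750 FPB, and over both KD libraries 0.0141 FPB. Reads carry no molecular identifiers, so limits and intervals cover counting error only. Linear levels were not compared between genes, since no source used here states a length correction. Across the 2427 circles tested, log2 FPBcirc correlated with r = 0.366 for the control pair and r = 0.818 for the KD pair. Between a control and a KD library r was 0.318 to 0.346, so in FPBcirc the controls were little more alike than libraries of different groups. In linear RNA r was 0.980 for the control pair and 0.877 to 0.935 between groups. For host sums these were 0.568 and 0.542 to 0.565, and for CIRCscore 0.826 and 0.776 to 0.835. These r are across circles or hosts, which are not independent replicates. Of 9 genes known from this line, 3 were listed as circle hosts, with 29 reads in all; of 11 markers of other cell types, 1 was listed, with 1 read. Circle hosts are thus a weak check of cell identity.

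The member circles held 132 and 128 backsplice reads in the controls and 606 and 196 in the KD libraries. Their summed FPBcirc was 6.75 and 6.26 in the controls and 3.66 and 4.09 in KD. Both KD sums lie below both control sums. Over all circles the sums were 2500 and 2700 FPB in the controls and 2130 and 2536 in KD, where the groups overlap. Of the hosts, only HBS1L, MTREX and TENT4A had both KD sums below both control sums. These hosts were taken up with their linear calls known, so the contrast with all circles is not independent of that choice. KD libraries alone showed 51 of the 83 circles, control libraries alone 11, and both groups 21; 3 were read in all 4 libraries. In the whole table KD libraries alone showed 69.6% of circles, against 61.4% here. A single library held all reads of 54 member circles (65.1%, against 66.1% of all circles), and 15 rested on 1 read. Depth and group moved together, so for raw numbers of circles they cannot be told apart. With every library thinned to the depth of control 1, the expected numbers of member circles seen were 20 and 15.9 in the controls and 25 and 27.6 in KD. For all circles they were 8357 and 8475 against 13652 and 13810. More member circles were thus expected in KD at equal depth, as in the table at large.

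**Figure D1:**
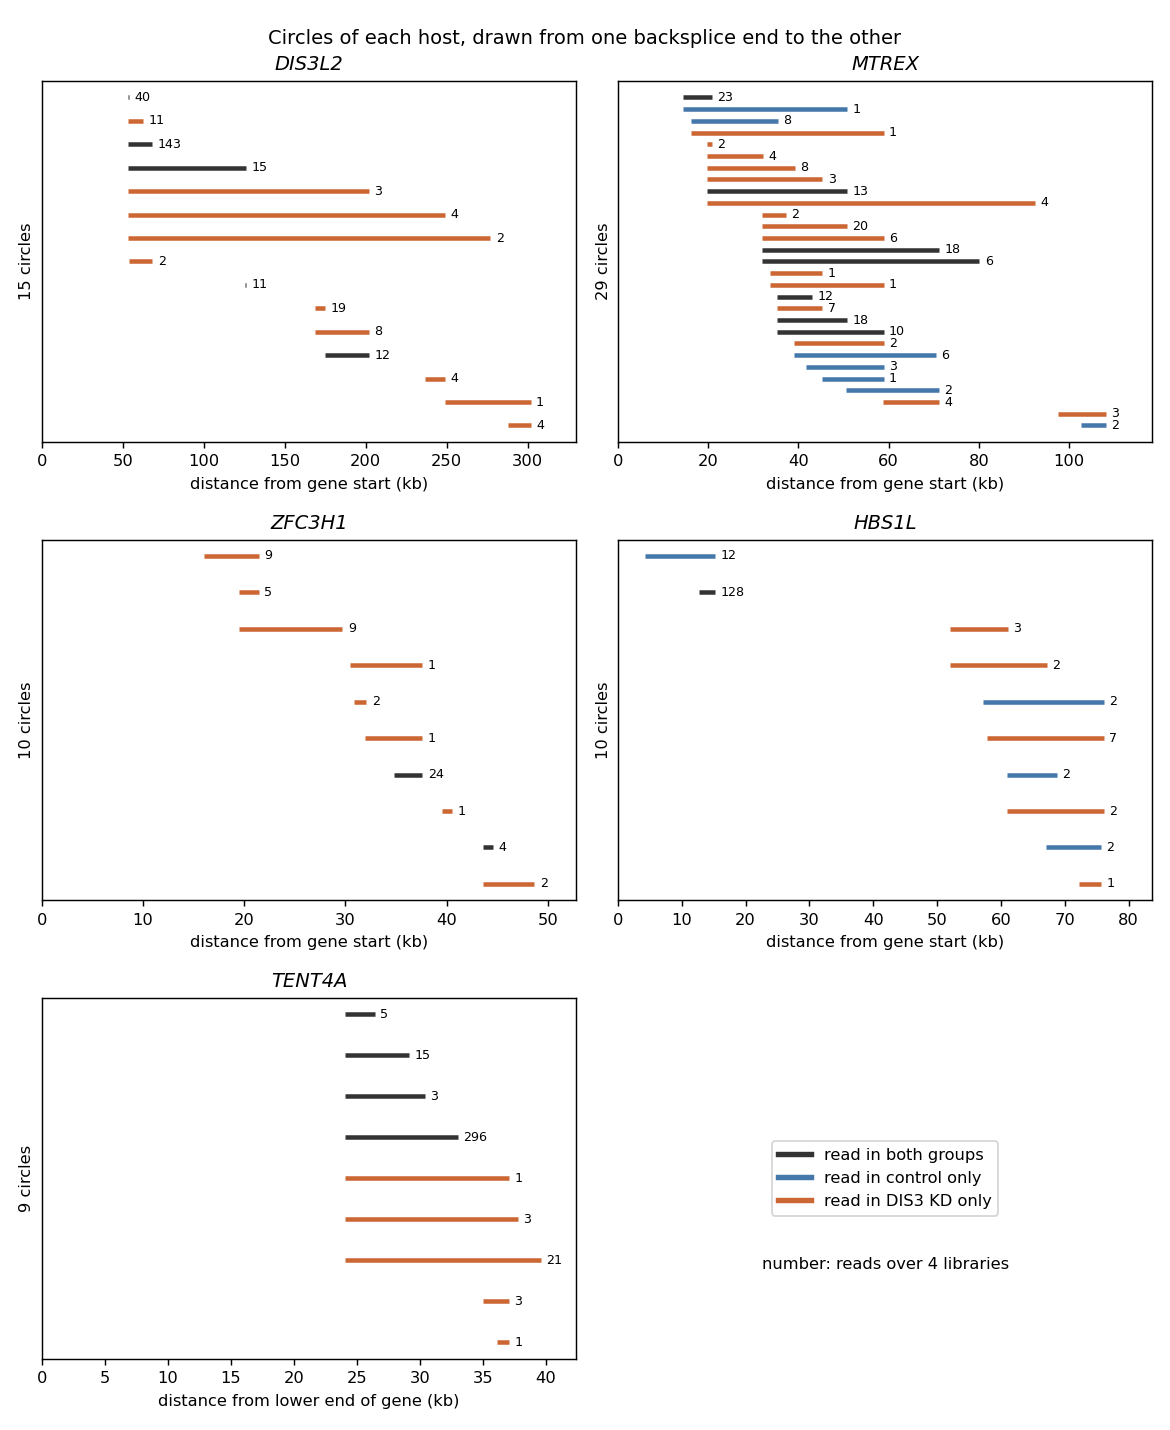
Circles of DIS3L2, MTREX, ZFC3H1, HBS1L and TENT4A, each a bar from one backsplice end to the other, by distance in kilobases from the gene start (for TENT4A, from the lower end of the gene); colours give the group in which a circle was read and numbers the reads over 4 libraries. In TENT4A and DIS3L2 7 circles share an end, and in HBS1L the 2 circles nearest the gene start hold 140 of 161 reads.

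All 83 circles lay inside the RefSeq span of their host on hg38 (GRCh38.p14). The hosts differed in how their circles were built. In TENT4A (chromosome 5, 6713432 to 6757044), 7 of 9 circles share the lower end 6737510 and hold 344 of its 348 reads. In DIS3L2 (chromosome 2, 231961713 to 232344350), 7 of 15 circles share the upstream end 232014835, 53122 bases from the gene start, and hold 218 of 279 reads. In DIS3L (chromosome 15, 66293309 to 66333898), 5 of 8 share the upstream end 66294988. MTREX (chromosome 5, 55307989 to 55425579) spread its reads over more sites. Its 29 circles used 13 upstream and 14 downstream ends, and the site shared by most circles, a downstream end at 55366875, served 7 with 24 of 191 reads. By reads, the downstream end 55358698 and the upstream end 55340010 led with 52 each. ZFC3H1 (chromosome 12, 71609599 to 71663848) used 8 upstream and 7 downstream ends for 10 circles. Spans ran from 235 bases to 223811 bases, both in DIS3L2. Of the annotated genes that overlap these hosts, lncRNA LOC124900979 encloses 3 MTREX circles. The sheets give no strand, so reads from it cannot be told apart from MTREX reads.

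HBS1L was lower in KD in both circles and linear RNA, TENT4A was higher in linear RNA, and MTREX and ZFC3H1 were lower in linear RNA. In bulk RNA, fewer cells and less RNA per cell cannot be told apart. Host sums and circles were tested when their mean FPBcirc over libraries reached 0.174, which is 5 times the median worth of 1 read. Libraries weigh equally in this mean, so a read in a shallow control counted for more than a read in KD. Some circles rich in KD reads thus stayed below the filter. Among host sums, 1 of 5 tested members fell and 0 rose, beside 2.17% of 2393 hosts called lower, 1.38% higher and 3.55% in either direction by limma (18.5% at an unadjusted p under 0.05). DESeq2 on the recovered reads called 1 of the 5 and gave no adjusted p for ZFC3H1, and edgeR called 0. HBS1L, MTREX and TENT4A had both KD sums below both control sums, as did 30.1% of all hosts tested, while 21.2% had both above. The median log2 fold change of the 5 sums was -0.67, beside -0.06 for all. In linear RNA 1 of 5 tested members rose and 3 fell, beside 11.3% of 2547 hosts that rose, 24.3% that fell and 35.6% in either direction (44.4% at an unadjusted p under 0.05). The same 4 did not overlap between groups, against 25.6% of all hosts higher and 45.1% lower without overlap. MTREX, ZFC3H1, HBS1L and TENT4A were taken up when those linear calls were already known. Neither the number of calls nor the median of the sums thus says anything about cofactors as a class.

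Of single circles, those leading TENT4A, HBS1L and DIS3L2 passed the abundance filter, and the other 80 did not. The lowest of the 3 in mean level stood at 0.672 FPB, and the highest below the filter, an MTREX circle, at 0.158. For all 3, FPBcirc was lower in KD with no overlap between the groups, as for 38.4% of the 2427 circles tested, while 16.2% were higher without overlap. Limma called 0 of the 3 (1 at an unadjusted p under 0.05, 0 in edgeR and 0 in DESeq2), beside 0.0824% of circles called higher, 0.453% lower and 0.536% in either direction (19.1% at an unadjusted p under 0.05). Their median log2 fold change was -0.92, beside -0.33 for all. CIRCscore was lower without overlap for 2 of the 3, TENT4A and DIS3L2, beside 42.6% of 1823 circles lower and 11.6% higher. It gave 0 calls among the 3 (1 at an unadjusted p under 0.05), beside 0.11% of circles called lower and 0.0% higher (20.8% at an unadjusted p under 0.05). With each library centred on its median, calls over all linear hosts went from 287 higher and 619 lower to 552 and 583, and those over circles from 2 and 11 to 1 and 0. Host sums went from 33 higher and 52 lower to 26 and 39 with centring, and to 37 and 20 in edgeR, which changes the model as well as the scaling. Centring moved the median log2 fold change of linear RNA from -0.17 to -0.01 and that of FPBcirc from -0.33 to 0.17. The 4 linear calls among the members held under it.

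DIS3, the depleted nuclease, gave too few circles to check its own depletion. It lies on chromosome 13, 72752169 to 72781900, on the minus strand, and both circles share the downstream end 72773684. The circle reaching 72778380 had 0, 0, 3 and 2 reads in controls 1 and 2 and KD 1 and 2. The circle reaching 72777493 had 0, 0, 4 and 0. Summed, they stood at 0.0423 and 0.0417 FPB in KD, below the pooled control limit of 0.0750 FPB, so no difference was detectable at this depth. Linear DIS3 RNA could be derived where a DIS3 circle was read, that is in KD alone, at 11.7 and 15.9 FPB. It has no control value to be set against.

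DIS3L had 3 and 0 backsplice reads in the controls and 7 and 6 in KD, spread over 8 circles with at most 3 reads each. Its summed level was 0.153 and 0 FPB in the controls and 0.0423 and 0.125 in KD, so the groups overlap. The circles with most reads, 66294988 to 66320732, 66294988 to 66322934 and 66306824 to 66308844, had 3 reads each over the 4 libraries. Linear DIS3L RNA was 10.8 FPB in control 1 and 5.69 and 7.29 in KD; control 2 has no value, so it was not tested.

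**Figure D2:**
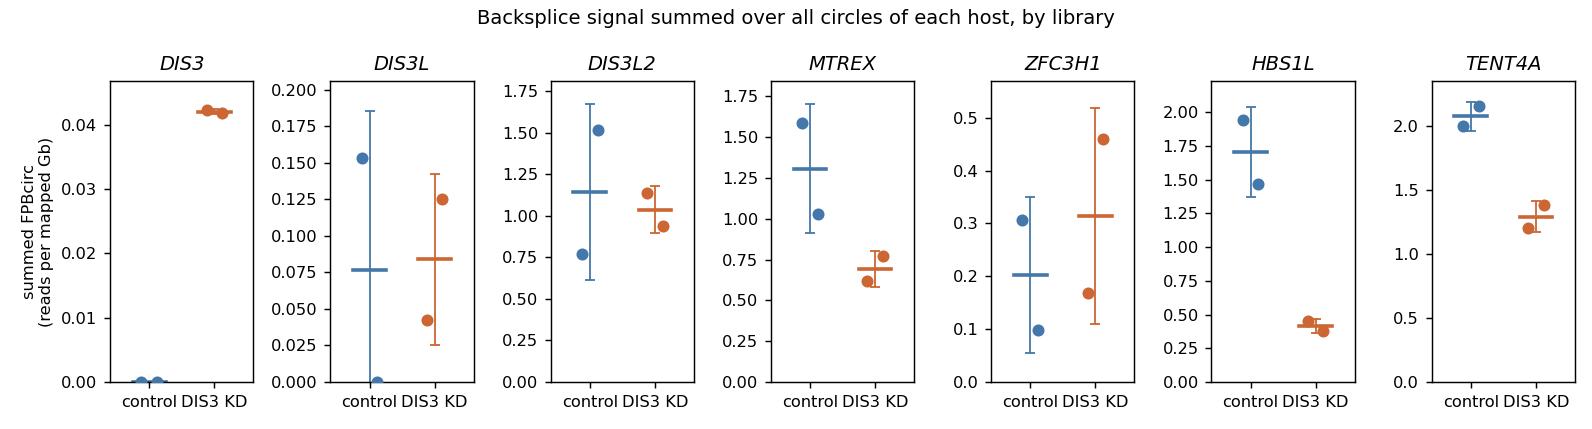
Summed FPBcirc (backsplice reads per mapped gigabase) of each host in each library, on a scale of its own per host; points are libraries, bars the mean and whiskers 1 SD (n = 2). HBS1L, TENT4A and MTREX have both KD points below both control points, and DIS3L, DIS3L2 and ZFC3H1 overlap.

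DIS3L2 showed no difference beyond the spread of its controls, either in summed circles or in linear RNA. Its summed FPBcirc was 0.767 and 1.52 in the controls and 1.14 and 0.939 in KD. Both KD values fall between the control values (limma: log2 fold change -0.06 with SE 0.47, adjusted p = 0.95). Linear DIS3L2 was 4.83 and 3.12 FPB in the controls and 4.10 and 3.98 in KD (limma: log2 fold change 0.04 with SE 0.21, adjusted p = 0.903). Neither p shows that the levels were equal, and the controls are far apart. The leading circle, 232014835 to 232030080, had 13, 23, 90 and 17 reads, or 0.665, 1.13, 0.544 and 0.355 FPB. Both KD values are below both controls, yet the difference did not pass (limma: log2 fold change -0.92 with SE 0.47, adjusted p = 0.309). The log2 fold change was -0.43 with library median centring, -0.23 in edgeR and -0.24 in DESeq2. It was -1.29 without control 1, -0.56 without control 2, -1.21 without KD 1 and -0.64 without KD 2. Its CIRCscore was 0.139 and 0.363 in the controls and 0.135 and 0.0915 in KD (limma: log2 fold change -0.99 with SE 0.57, adjusted p = 0.360). The CIRCscore change rests on control 2, without which it was -0.32 (adjusted p = 0.661); without control 1 it was -1.67 (0.0360), without KD 1 -1.26 (0.750), without KD 2 -0.72 (0.830) and with centring -0.51 (0.690).

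Within DIS3L2, the leading circle took 86.7% and 74.2% of the host's backsplice reads in the controls (95% exact binomial intervals 59.5 to 98.3% and 55.4 to 88.1%). In KD it took 47.9% and 37.8% (40.5 to 55.3% and 23.8 to 53.5%). The groups do not overlap, and the exact permutation p is 0.333, two-sided, the smallest that 2 against 2 libraries allow. This share was looked at after the values were seen. Of 840 hosts with several circles and at least 10 reads in every library, 25.5% had such a lower share in KD without overlap and 18.0% a higher one. The short circle 232014835 to 232015671, with the same upstream end, had 0, 3, 25 and 12 reads. The circle 232014835 to 232087721, from that end too, had 1, 0, 12 and 2. The circle 232130619 to 232136719 had 0, 0, 13 and 6. Its KD level, a plain mean of the 2 libraries, was 0.102 FPB, or 1.36 times the limit over the pooled controls. This ratio leaves out the counting error of the KD reads. Of circles read in both KD libraries with at least 19 reads, 22.3% had no control read.

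MTREX spread its signal over many weak circles. Its summed level was 1.59 and 1.03 FPB in the controls and 0.616 and 0.772 in KD. Both KD libraries lie below both controls, but the sum did not pass (limma: log2 fold change -0.86 with SE 0.47, adjusted p = 0.333). No single MTREX circle passed the abundance filter. The leading one, 55322327 to 55328811, had 9, 0, 8 and 6 reads, the next, 55340010 to 55358698, had 0, 0, 15 and 5, and 55340010 to 55379195 had 0, 2, 10 and 6, level in total with 55343331 to 55358698 at 0, 3, 11 and 4. No MTREX circle was read in both controls, which showed 7 each. Control libraries alone showed 7 MTREX circles, among them 55324132 to 55343455 with 8 reads and 55347013 to 55378486 with 6, each in control 1 alone. Linear MTREX RNA was 37.0 and 44.3 FPB in the controls and 15.8 and 22.7 in KD. It fell from 40.7 ± 5.15 to 19.3 ± 4.89 FPB (SD, n = 2 each; limma: log2 fold change -1.05 with SE 0.26, adjusted p = 0.000497). Without control 2 the call was lost (adjusted p = 0.0843). The ratio of summed circles to linear RNA was 0.0428 and 0.0232 in the controls and 0.0390 and 0.0340 in KD, with both KD values between the control values.

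ZFC3H1 fell in linear RNA, with few circle reads to set against it. Linear levels were 5.49 and 6.54 FPB in the controls and 2.89 and 3.76 in KD (limma: log2 fold change -0.68 with SE 0.21, adjusted p = 0.00657). This call was lost without control 1 (adjusted p = 0.106) and without control 2 (0.266). Backsplice reads numbered 6 and 2 in the controls and 28 and 22 in KD, or 0.307, 0.0978, 0.169 and 0.459 FPB. The groups overlap (limma: log2 fold change 0.58 with SE 0.89, adjusted p = 0.757). The leading circle, 71626260 to 71629037, had 6, 0, 15 and 3 reads. The circle 71634155 to 71644318 had 0, 0, 6 and 3. All 9 reads of 71642436 to 71647813 came from KD 2, and 8 of the 10 circles were read in KD alone.

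**Figure D3:**
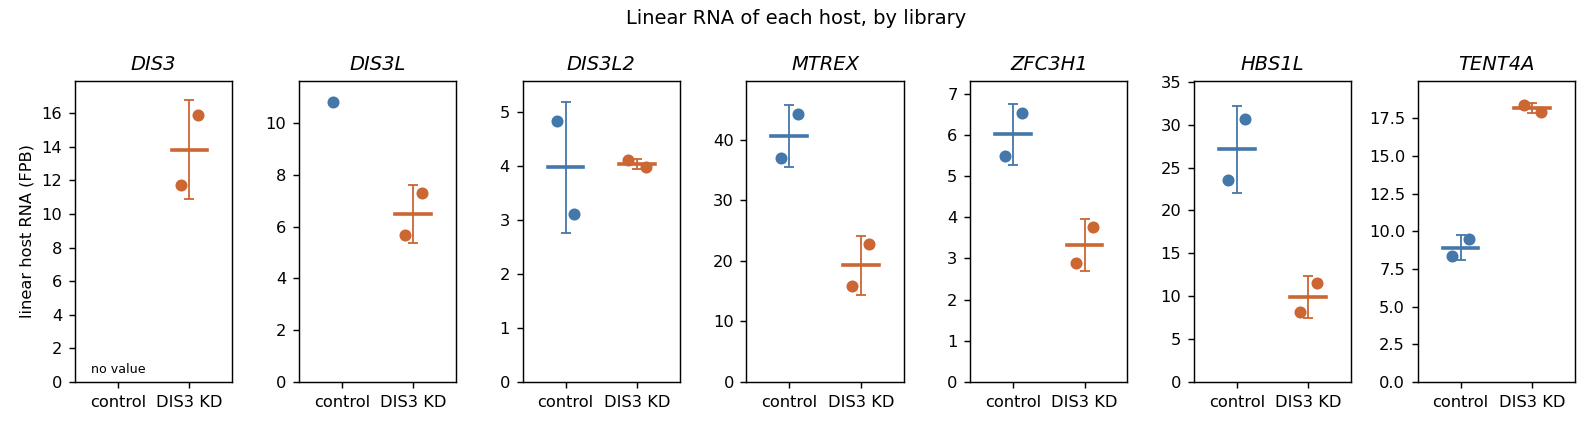
Linear RNA (FPB) of each host in each library, on a scale of its own per host; points are libraries, bars the mean and whiskers 1 SD (n = 2). MTREX, ZFC3H1 and HBS1L lie lower in both KD libraries, TENT4A higher, and DIS3 has no control value because no DIS3 circle was read there.

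HBS1L fell in both circles and linear RNA. Its summed level was 1.94 and 1.47 FPB in the controls and 0.453 and 0.376 in KD, a fall from 1.71 ± 0.336 to 0.414 ± 0.0549 (SD, n = 2 each; limma: log2 fold change -1.95 with SE 0.47, adjusted p = 0.0376). This call was lost without KD 1 (adjusted p = 0.696), without KD 2 (0.402), with libraries centred on their median (0.0741), without variance trend and robust moderation (0.240), without the filter (0.330) and in edgeR (0.0934). The log2 fold change stayed between -2.14 and -1.65 in every one of the 11 alternatives. Linear HBS1L was 23.5 and 30.7 FPB in the controls and 8.13 and 11.6 in KD. It fell from 27.1 ± 5.06 to 9.86 ± 2.45 FPB (SD, n = 2 each; limma: log2 fold change -1.37 with SE 0.25, adjusted p = 1.19e-06), and this call held in all 9 alternatives.

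HBS1L lies on the minus strand of chromosome 6, 134960378 to 135054822. Its leading circle, 135039573 to 135042126, begins 12696 bases from the gene start and had 25, 25, 65 and 13 reads. These are 1.28 and 1.22 FPB in the controls and 0.393 and 0.271 in KD, with both KD values under 0.4 FPB (limma: log2 fold change -1.83 with SE 0.42, adjusted p = 0.0910). The adjusted p passed without control 1 (0.0178) and without control 2 (0.017), where a lone control is assumed to vary like the KD pair. It did not pass without KD 1 (0.614), without KD 2 (0.371), with centring (0.219) or in edgeR (0.311) and DESeq2 (0.245), where the log2 fold change was -1.15 and -1.16. The CIRCscore of this circle was 0.0547 and 0.0401 in the controls and 0.0495 and 0.0243 in KD. The groups overlap, so a lower ratio was not shown (limma: log2 fold change -0.38 with SE 0.52, adjusted p = 0.699), and the sign turned with library median centring (0.10) and without KD 2 (0.071).

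A neighbouring HBS1L circle, 135039573 to 135050647, shares the downstream end and begins 4175 bases from the gene start. It had 9 and 3 reads in the controls and 0 and 0 in the deeper KD libraries. Its mean control level of 0.304 FPB is 21.6 times the limit of 3 reads over both KD libraries. This ratio leaves out the counting error of the control reads. Of 1540 circles read in both controls with at least 12 reads, 0.779% had no KD read. That comparison was chosen after the values were seen, and this circle, below the abundance filter, was not called when every circle was tested (limma adjusted p = 0.466). The other 8 HBS1L circles begin 51980 to 72260 bases from the gene start and hold 21 reads in all. The most read of these 8, 134978679 to 134996942, had 0, 0, 5 and 2, and the next, 134993758 to 135002842, had 0, 0, 0 and 3.

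**Figure D4:**
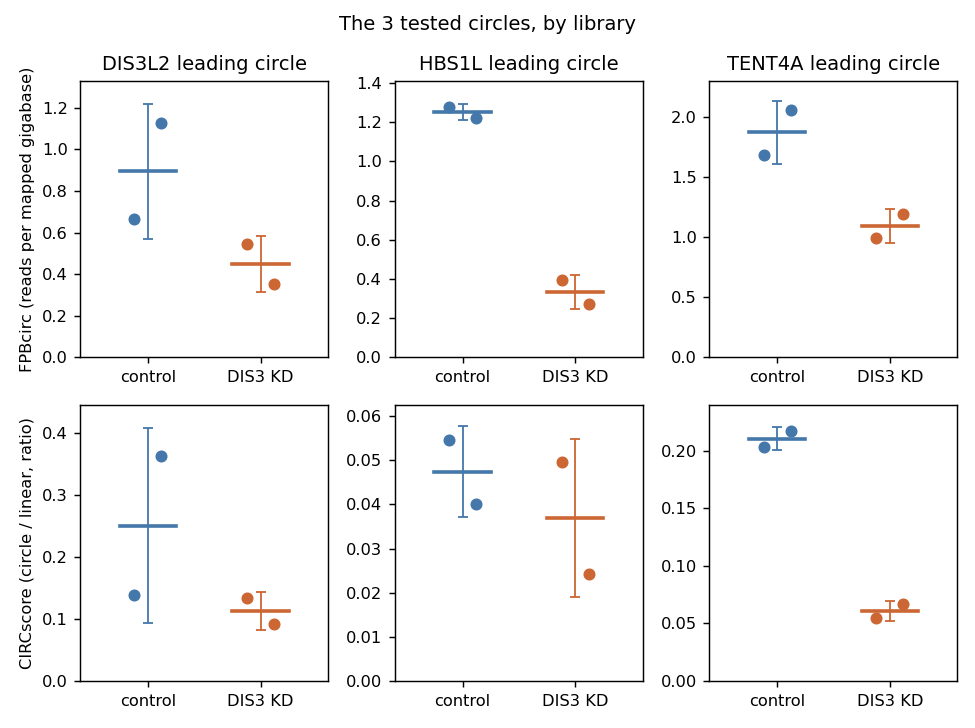
FPBcirc (upper row) and CIRCscore, the circle to linear ratio (lower row), of the 3 member circles above the abundance filter, by library; bars are means and whiskers 1 SD (n = 2). All 3 have lower FPBcirc in both KD libraries, while CIRCscore is lower without overlap for TENT4A and DIS3L2 and overlaps for HBS1L.

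TENT4A went the other way in linear RNA, and its circles did not follow. Linear TENT4A was 8.34 and 9.49 FPB in the controls and 18.4 and 17.9 in KD. It rose from 8.91 ± 0.817 to 18.2 ± 0.339 FPB (SD, n = 2 each; limma: log2 fold change 0.94 with SE 0.24, adjusted p = 0.000693; without control 1 the call was lost, adjusted p = 0.104). Its circles summed to 1.99 and 2.15 FPB in the controls and 1.20 and 1.38 in KD. Both KD sums are below both controls, without passing (limma: log2 fold change -0.67 with SE 0.38, adjusted p = 0.347; -0.35 in edgeR and -0.41 in DESeq2). The leading circle, 6737510 to 6746427, is the strongest of the 83 by mean level. It had 33, 42, 164 and 57 reads, or 1.69, 2.05, 0.991 and 1.19 FPB (limma: log2 fold change -0.76 with SE 0.34, adjusted p = 0.273). The size of this difference depended on the scaling and tool, at -0.27 with library median centring, -0.11 in edgeR and -0.12 in DESeq2. It took 84.6% and 95.5% of TENT4A backsplice reads in the controls and 82.4% and 86.4% in KD, so the groups overlap in this share.

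The CIRCscore of the TENT4A circle was 0.203 and 0.217 in the controls and 0.0543 and 0.0669 in KD. The means were 0.210 ± 0.00984 and 0.0606 ± 0.00885 (SD, n = 2 each), and the difference is larger than the spread within either pair. Linear RNA is the denominator of this ratio, and TENT4A was taken up with its linear rise known. A lower ratio was thus favoured by the choice of the host. It did not pass over all 1823 circles (limma: log2 fold change -1.73 with SE 0.41, adjusted p = 0.144). With 1 control left it passed (adjusted p = 0.0313 without control 1 and 0.0366 without control 2), and with 1 KD library left it did not (0.680 without KD 1 and 0.415 without KD 2). The log2 fold change ran from -1.87 to -1.24 over all 9 alternatives, the smallest with centring. A further circle from the same site, 6737510 to 6753037, had 0, 0, 15 and 6 reads. Its plain mean KD level was 1.44 times the limit over the pooled controls, leaving out the counting error of the KD reads. Of circles read in both KD libraries with at least 19 reads, 22.3% had no control read. The circle 6737510 to 6742597 had 3, 0, 12 and 0, and 6737510 to 6739852 had 3, 0, 0 and 2.

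**Figure D5:**
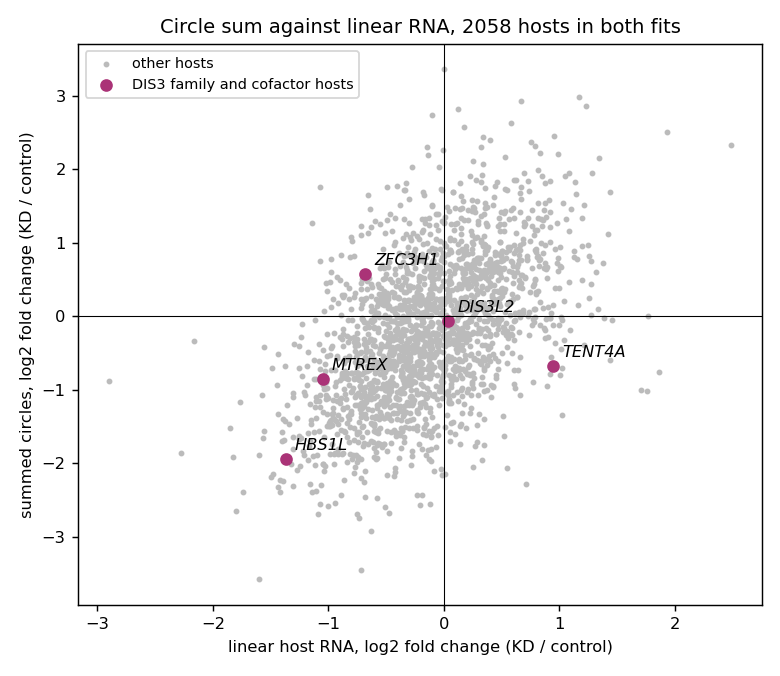
Log2 fold change (KD over control) of summed circles against that of linear RNA for the 2058 hosts in both fits, each point a host. HBS1L and MTREX lie lower on both axes, TENT4A at 0.94 in linear RNA and -0.67 in circles, and ZFC3H1 at -0.68 and 0.58. Among the member circle sums only that of HBS1L was called, and those of ZFC3H1 overlap between the groups.

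Hosts with a linear profile most like each member, by the smallest root mean square difference in centred log2 level over the 4 libraries among 2546 other hosts, were these. For HBS1L they were CDC40 (0.033) and CAST (0.049), for MTREX USP48 (0.027) and ROCK2 (0.032), and for ZFC3H1 PDE8A (0.013) and ZGRF1 (0.014). For TENT4A they were GLI3 (0.015) and SUN1 (0.016), and for DIS3L2 SUMF1 (0.049) and LCOR (0.054).

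The rest of the pathway was read from 4 lists of 42 genes, of which 30 were listed as hosts. The lists cover the exosome ring, its nuclear and cytoplasmic cofactors with the 5' exonucleases, and factors of circle decay and export. None of the 13 with a tested circle sum was called by limma, edgeR or DESeq2, and 1, TUT4, had an unadjusted limma p under 0.05. Both counts are near or below the background, where 3.55% of all host sums were called and 18.5% had an unadjusted p under 0.05. TUT4 circles summed to 0.972 and 1.32 FPB in the controls and 0.490 and 0.376 in KD (limma adjusted p = 0.173). Of 11 tested in linear RNA, 1 rose and 2 fell, no larger a share than the 35.6% of all hosts called in either direction. TUT4, which adds the uridine tails that DIS3L2 reads, fell from 9.95 ± 0.665 to 5.27 ± 1.36 FPB (SD, n = 2 each; limma adjusted p = 0.00222). G3BP1, a stress granule protein, fell from 74.4 ± 7.18 to 43.2 ± 6.84, and AGO2, the slicer guided by small RNAs, rose from 10.1 ± 1.47 to 16.5 ± 2.47 (n = 2 each; limma adjusted p = 0.0112 and 0.0219). All 3 calls were lost without control 1 (adjusted p = 0.148, 0.204 and 0.364) and without control 2 (0.0850, 0.0884 and 0.142), and those of G3BP1 and AGO2 without KD 1 (0.100 and 0.0744). By list, the median log2 fold change of the tested sums was 1.74 for the exosome ring (3 of 10 genes tested), -0.26 for the nuclear cofactors (3 of 13), -0.47 for the cytoplasmic cofactors and 5' exonucleases (2 of 7) and 0.88 for circle decay and export (5 of 12), beside -0.06 for all hosts. The 1.74 is the value of EXOSC1, at 0.256 and 0 FPB in the controls and 0.290 and 0.313 in KD (limma adjusted p = 0.496). It rests on control 2, where no read was seen. In linear RNA the list medians were -0.38 (1 tested), -0.16 (3), -0.67 (2) and 0.33 (5), beside -0.17. EXOSC10, the nuclear partner nuclease, stood at 0.205 and 0 FPB in the controls and 0.314 and 0.334 in KD (limma adjusted p = 0.431). EXOSC9 linear RNA was 14.6 ± 0.582 and 11.1 ± 2.68 FPB (n = 2 each; limma adjusted p = 0.208).

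The upstream sequences of the 3 hosts whose linear RNA fell together are shown to let their start regions be compared. Each line holds the 250 bases before the gene start from RefSeq (GRCh38.p14), 5' to 3' on the gene's strand, with motif matches on either strand in capitals. The motifs searched were the CCAAT box, the TATA box written TATAAA, the Sp1 motif written GGGCGG and the ETS motif written CCGGAAG. MTREX is chr5:55307739-55307988 on the plus strand, ZFC3H1 is chr12:71663849-71664098 and HBS1L is chr6:135054823-135055072, both on the minus strand.
MTREX: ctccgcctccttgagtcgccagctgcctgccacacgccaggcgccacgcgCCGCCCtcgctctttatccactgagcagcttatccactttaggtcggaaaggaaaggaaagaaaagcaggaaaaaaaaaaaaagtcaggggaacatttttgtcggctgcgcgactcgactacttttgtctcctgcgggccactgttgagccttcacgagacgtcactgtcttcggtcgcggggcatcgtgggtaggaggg
ZFC3H1: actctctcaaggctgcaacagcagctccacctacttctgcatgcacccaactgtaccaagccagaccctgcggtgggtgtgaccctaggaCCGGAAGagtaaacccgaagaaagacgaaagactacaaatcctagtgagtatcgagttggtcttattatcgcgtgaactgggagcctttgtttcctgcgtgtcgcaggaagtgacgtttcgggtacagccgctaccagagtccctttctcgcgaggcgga
HBS1L: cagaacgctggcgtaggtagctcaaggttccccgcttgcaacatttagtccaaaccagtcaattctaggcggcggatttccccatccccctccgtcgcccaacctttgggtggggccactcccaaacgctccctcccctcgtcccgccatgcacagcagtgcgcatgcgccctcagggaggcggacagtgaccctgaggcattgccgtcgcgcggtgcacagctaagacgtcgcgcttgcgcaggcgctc
MTREX holds 1 GGGCGG match, here as its reverse complement, and ZFC3H1 1 CCGGAAG match, while HBS1L holds none of the 4 motifs, so no matches overlap. Among 35116 RefSeq upstream windows of this length, 42.6% hold GGGCGG, 8.52% CCGGAAG, 32% CCAAT and 10.7% TATAAA. GC content is 56.8% for MTREX, 54.0% for ZFC3H1 and 64.0% for HBS1L, beside a median of 58.0%. No motif is shared by the 3 windows, which says only that these letters do not recur in them.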

How the data were processed

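Total RNA was depleted of rRNA and made into libraries with a strand-keeping kit, per the labels' protocols. Bowtie2 2.3.5, build hg38 and bcl2fastq 2.20 are named, per the submitters' processing notes, while no source used here names the circle caller. The deposited FPBcirc is a depth-normalised signal per library, per the file headers, and the deposited CIRCscore is a ratio of circle to linear signal. The authors' deposited fold change was not used. Values of FPBcirc above 0 were whole multiples of 1 read's worth (100% within 0.001 of a read), so reads and depth were recovered. Linear FPB was derived as (FPBcirc + 0.01) / CIRCscore minus 0.01, where a circle was read. It left no negative value and was a single value for at least 99.8% of hosts with several circles.

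Groups (2 against 2) were compared over the whole table with limma 3.58.1 in R 4.3.3, two-sided, with trend and robust moderation on log2(value + pseudocount) and Benjamini-Hochberg adjusted p under 0.05. This scale understates the change of low circles. Pseudocounts were 0.0349 for FPBcirc and host sums (1 read, median over libraries), 0.00448 for CIRCscore and 1.16 for linear FPB (percentile 5). Circles and host sums with a mean of at least 0.174 FPB, 5 times the median worth of 1 read, were tested. CIRCscore needed this filter and a value in all 4 libraries. Linear RNA needed only a value in all 4. Alternatives were leave-one-out, a replicate block, pseudocounts, filters, centring, plain limma, edgeR 4.0.16 and DESeq2 1.42.0. Fits were also run on data simulated with a fixed spread, not that of these libraries, so this checks the code and not the calls. The members and lists were chosen with earlier results of these data known. Text names every circle past the filter, the 3 most read others per host, and called list genes; other named circles and list genes were chosen after their values were seen. TENT4A is absent from the promoter table, so its strand is not used. Figures were drawn with matplotlib 3.10.9. The p-values measure the spread between libraries of 1 clone and 1 control line.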

Additional observations from a re-analysis of the deposited data

How the results depend on the processing

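Replicate numbers were shared but did not pair the libraries. The correlation of same-numbered deviations was 0.0029 for FPBcirc, 0.027 for CIRCscore, 0.065 for linear FPB and -0.0026 for host sums. With the number as a replicate block the calls over all features (higher and lower in KD) were 36 and 98 for FPBcirc (2 and 11 without), 1 and 8 for CIRCscore (0 and 2), and 83 and 132 for host sums (33 and 52); among members the block made the HBS1L leading circle pass (adjusted p = 0.0485) and changed no other call. Leaving out each library gave 0 to 350 higher and 0 to 440 lower for FPBcirc, 1 to 57 and 7 to 228 for CIRCscore, 76 to 302 and 179 to 916 for linear RNA (287 and 619), and 0 to 338 and 0 to 316 for host sums. With 4 times the pseudocount the counts were 19 and 26 for FPBcirc and 54 and 81 for host sums, and 1 lower for CIRCscore. Centring gave 1 and 0 for FPBcirc, 0 lower for CIRCscore and 552 higher for linear RNA. Limma without trend and robust moderation called 0 and 0 for FPBcirc, 0 lower for CIRCscore and 0 and 0 for host sums. Without the filter the counts were 48 and 61 for FPBcirc and 0 and 0 for host sums. On recovered reads edgeR called 1 and 0 circles and 37 and 20 host sums, and DESeq2 172 and 65 circles and 119 and 122 host sums. Where these counts are 0, unadjusted p under 0.05 gave 185 lower (centring), 135 and 301 (plain limma) and 147 lower (edgeR) for FPBcirc, 127 (centring) and 327 lower (plain limma) for CIRCscore, and 157 and 206 (plain limma) and 555 and 309 (no filter) for host sums. Signs turned for the DIS3L2 host sum with centring (0.036), edgeR (0.24) and DESeq2 (0.17) and for the HBS1L CIRCscore with centring (0.10). With libraries left out, the log2 fold change ran from -0.54 to 0.41 for the DIS3L2 sum, from -0.20 to 0.28 for linear DIS3L2, from -0.11 to 1.26 for the ZFC3H1 sum and from -0.84 to 0.071 for the HBS1L CIRCscore. The other tested members kept their sign in all alternatives run. The cause of these differences was not tested. Shallow controls limit what can be said of the 80 circles below the filter.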
